A study of Mus musculus with 12 samples.

Results

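Regulators of G-protein signalling (RGS proteins) were followed at the mRNA level in bone marrow-derived macrophages (BMMs) with and without IGF2BP2, before and after interleukin-4 (IL-4). The set held 9 genes, Rgs1, Rgs2, Rgs3, Rgs10, Rgs12, Rgs14, Rgs16, Rgs18 and Rgs19, of 38887 genes in each library table, and all 9 were among the 12846 genes that passed the filter on low counts. The set was chosen by the measured values of Rgs16, which was higher after IL-4 and lower in KO macrophages in these same libraries. Rgs16 is therefore described without a test, whereas the other 8 genes were tested.

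The 12 libraries were made from macrophages of 3 WT mice and 3 mice lacking IGF2BP2 in myeloid cells (KO), aged 3 to 4 months. Bone marrow was differentiated for 6 days with 50 ng/ml M-CSF in all groups, and the cells were left untreated (M0) or received 20 ng/ml IL-4 for 8 h (M2), with 3 libraries in each of the 4 groups. In KO mice, exons 4 and 5 of Igf2bp2 were floxed and Cre was driven by the myeloid Lyz2 locus. WT littermates carried no floxed Igf2bp2, with or without Cre. Total counts ranged from 20011792 to 39632770 per library and were lowest in WT M2. Igf2bp2 itself had 118, 99.7 and 76.5 CPM (counts scaled to a common library size) in WT M0 and 95.9, 84.9 and 91.6 CPM in KO M0. After IL-4 the WT libraries had 221, 233 and 178 CPM and the KO libraries 146, 129 and 129 CPM, so that whole-gene counts, which include the remaining exons, separated the genotypes in M2 and overlapped in M0. Lyz2 was also nearly lost in KO, with 4180 to 10500 CPM in WT and 11.0 to 33.2 CPM in KO libraries, and effects of the Lyz2-Cre allele and of IGF2BP2 loss cannot be told apart in any KO comparison. All 8 macrophage markers examined, such as Csf1r and Adgre1, were expressed, with a summed level of 5320 to 6340 CPM. Between genotypes, 1 of the 8 was called in M0, against 9.78% of all genes, and 0 in M2, against 2.68%. The called marker was Itgam, higher in KO M0 by 0.45 on the log2 scale (SE 0.08, edgeR adjusted p = 0.00396). The T cell, mast cell and dendritic cell markers summed to at most 2.11 CPM in any library. B cell markers reached 8.93 CPM and endothelial markers 10.3 to 11.8 CPM in M0 and 40.4 to 54.9 CPM in M2.

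RGS proteins bind the active, GTP-loaded alpha subunit of a heterotrimeric G protein and accelerate its GTP hydrolysis, so that signalling from G protein-coupled receptors ends sooner. Receptors for chemokines and other chemoattractants couple mainly to Gi proteins, and RGS proteins are known as brakes on this signalling in leukocytes. IGF2BP2 is an RNA-binding protein that reads N6-methyladenosine (m6A) and stabilizes many of its target mRNAs. Rgs1, Rgs2, Rgs3, Rgs16 and Rgs18 belong to the R4 subfamily of mostly small RGS proteins. Rgs10, Rgs12 and Rgs14 form another subfamily, in which the larger Rgs12 and Rgs14 also carry a GoLoco motif that holds Gi alpha in its GDP-bound state. Rgs19, also known as GAIP, belongs to a further subfamily that binds Gi-type alpha subunits.

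Levels of different genes were compared in TPM, which is corrected for transcript length. In WT M0 macrophages, Rgs10 had a mean level of 181 TPM and Rgs1 of 173 TPM, followed by Rgs2 with 136 TPM and Rgs19 with 126 TPM. These 4 transcripts lay above 89.6% or more of the fitted genes. A gap separated them from Rgs14 (35.5 TPM), Rgs18 (22.0 TPM) and Rgs3 (16.5 TPM), while Rgs12 (4.93 TPM) and Rgs16 (3.75 TPM) had the lowest levels. The libraries of Rgs10 and Rgs1, of Rgs2 and Rgs19, and of Rgs12 and Rgs16 overlapped, so that the order within these pairs was not resolved in WT M0. The 9 genes together made up 648 to 761 TPM per library, of which Rgs16 contributed 0.146% to 0.635% in M0 and 1.51% to 4.03% in M2.

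**Figure D1:**
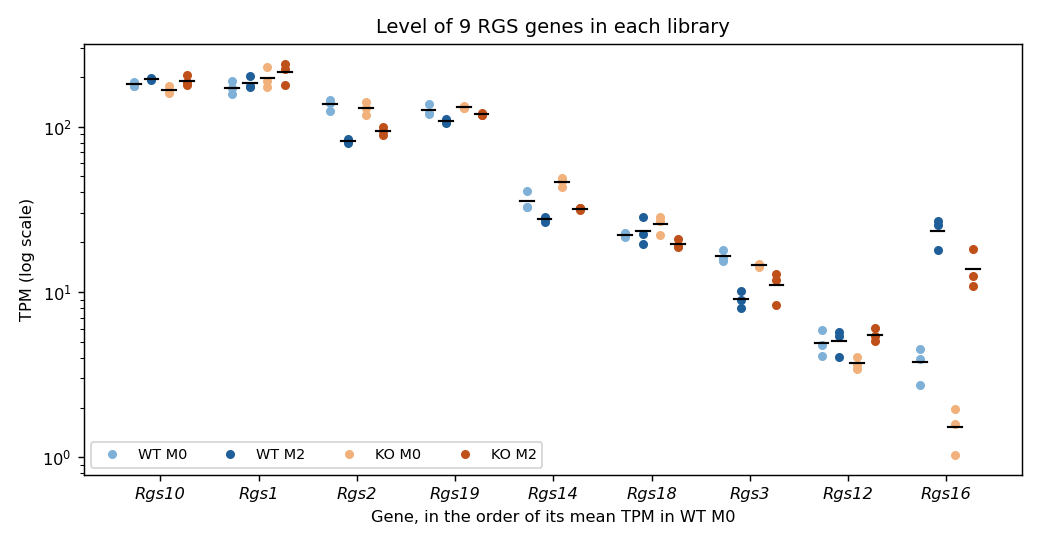
TPM of the 9 RGS genes on a log scale, with 1 point per library, 3 libraries per group and a black line at the group mean. Rgs10, Rgs1, Rgs2 and Rgs19 lie near 100 TPM in all groups, whereas Rgs16 moves from 3.75 to 23.4 TPM in WT and from 1.52 to 13.8 TPM in KO after IL-4.

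IL-4 reordered the lower part of this list. In WT M2, Rgs16 reached a mean of 23.4 TPM and overlapped with Rgs14 (27.5 TPM) above it and Rgs18 (23.4 TPM) below it. In KO M2 it reached 13.8 TPM, below Rgs18 (19.6 TPM) without overlap and overlapping with Rgs3 (11.1 TPM). The leading 4 genes stayed the same in every group, with Rgs1 in first place in KO (198 TPM in M0, 214 TPM in M2) and Rgs10 in WT, but the libraries of Rgs1 and Rgs10 overlapped in each of the 4 groups.

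Rgs16, which limits Gi and Gq signalling and chemokine-driven migration of lymphocytes, lies on chromosome 1 at 153740349-153745468 (+ strand, GRCm38). In WT M0 it had 5.53, 4.90 and 3.58 CPM, and in WT M2 35.2, 33.3 and 23.4 CPM. In KO M0 it had 2.42, 1.30 and 2.02 CPM, and in KO M2 25.0, 16.2 and 14.2 CPM. All libraries with IL-4 thus lay above all libraries without it, and WT replicate 3 was the lowest WT library in both states. The KO values rest on 49 to 73 counts per library in M0 and on 528 to 663 counts in M2.

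The log2 fold change of Rgs16 with IL-4 was 2.70 (SE 0.25) in WT, corresponding to a factor of 6.52, and 3.28 (SE 0.28) in KO, a factor of 9.74. Within a WT mouse, the ratio of M2 to M0 was 6.37, 6.81 and 6.52, and within a KO mouse it was 10.3, 12.4 and 7.04. The WT ratios were thus close to each other although the levels of these mice differed, and each KO ratio was above each WT ratio. The difference between the responses (KO minus WT) was 0.58 (SE 0.38) on the log2 scale, with 0.31 without KO M2 replicate 1 and 0.34 without KO M0 replicate 2. Between genotypes, the log2 fold change was -1.32 (SE 0.31) in M0, where the groups did not overlap. In M2 it was -0.74 (SE 0.22), and here the lowest WT library (23.4 CPM) was below the highest KO library (25.0 CPM). These values chose the set, and no test is attached to them.

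The neutrophil markers (6 genes) were also lower in KO M0, with a summed level of 4.44 to 4.56 CPM against 6.62 to 16.1 CPM in WT M0. Of these, 3 were below 1 CPM in every library, and Ngp had 5.89, 7.16 and 2.61 CPM in WT M0, again with the lowest value in replicate 3, and 1.43, 1.51 and 1.49 CPM in KO M0. Of the 3 fitted neutrophil markers, 2 fell in KO M0, where 9.78% of all genes were called. These were Ngp with a log2 change of -1.82 (SE 0.42, edgeR adjusted p = 0.018) and S100a9 with -1.38 (SE 0.29, edgeR adjusted p = 0.0124), and S100a8 had -0.95 (SE 0.42, edgeR adjusted p = 0.178). In M2, 0 of the 3 were called by edgeR, against 2.68% of all genes, and 1 had an unadjusted edgeR p under 0.05, as had 20.3%. The list there summed to 3.27 to 9.00 CPM in WT and to 3.63 to 4.48 CPM in KO. With IL-4 in WT, where Rgs16 rose, 2 of the 3 were called lower, against 25.1% of all genes. Ngp had a log2 change of -1.28 (SE 0.42, edgeR adjusted p = 0.023), S100a9 of -0.75 (SE 0.29, edgeR adjusted p = 0.0485) and S100a8 of -0.58 (SE 0.43, edgeR adjusted p = 0.286). With IL-4 in KO, 0 of the 3 were called, against 52.8% of all genes. The 5 stromal markers summed to 29.5 to 59.5 CPM over the WT libraries and to 7.91 to 29.8 CPM over the KO libraries, and 2 of the 5 were below 1 CPM in every library. The part of these cells in the Rgs16 values was not tested. In bulk RNA, fewer cells of a type and less RNA per cell cannot be told apart.

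The promoter of Rgs16 is shown because Rgs16 chose the set. It covers 250 bases before the RefSeq start site (GRCm38.p6, chr1:153740103-153740352, + strand). Capitals mark matches to the 6 motifs searched on both strands, here an inverted CCAAT box and 2 GC boxes (GGGCGG), which overlap each other by 1 base.
Rgs16 promoter: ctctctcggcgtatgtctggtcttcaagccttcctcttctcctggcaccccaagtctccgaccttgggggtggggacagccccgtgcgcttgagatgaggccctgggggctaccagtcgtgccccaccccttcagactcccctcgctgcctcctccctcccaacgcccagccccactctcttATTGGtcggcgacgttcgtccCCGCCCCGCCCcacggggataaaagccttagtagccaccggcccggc

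The motifs were TTCNNNNGAA, the palindrome preferred by STAT6, which carries the IL-4 signal to DNA, TTCNNNGAA, bound by other STAT factors, the CCAAT box, the TATA box as TATAA, the GC box as GGGCGG, and TGACG, part of the cAMP response element. RefSeq windows were at hand for 6 of the 9 genes, in 10 windows. GGGCGG was found in 8 of these 10 windows, compared to 32.7% of all 32851 promoter windows of that length, and CCAAT in 2, compared to 33.8%. Of the Rgs19 windows, 2 overlap and hold the same GC box. The member windows had 48.4% to 76.4% GC, against a median of 52.4% of all windows, and windows of like GC content were not compared. TATAA was found in 3 windows (22.8% of all) and TGACG in 2 (17.8% of all). The spacing TTCNNNGAA occurred in 0 of the 10 windows (7.02% of all), and TTCNNNNGAA in 1, at the second start site of Rgs12 (5.85% of all).

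In its 3'UTR, Rgs16 carries 4 copies of ATTTA, the core of AU-rich elements through which decay factors act on mRNA, in 1613 bases of the GENCODE M21 transcript, which may differ from the transcripts counted, as the annotation release behind the deposited counts is not given in the sources used here. This density of 2.48 per kb was higher than that of 73.0% of 11341 fitted coding genes. GGACT, a frequent form of the m6A consensus in DNA letters, occurred 3 times, or 1.86 per kb, above 82.1% of the genes. Among the other members, Rgs18 had the highest ATTTA density with 5 copies in 1129 bases (4.43 per kb, above 91.0% of the genes), and Rgs10, Rgs12 and Rgs14 had 0 copies. Rgs10 had 3 GGACT in only 275 bases, a density above 99.6% of the genes, while Rgs12, Rgs14, Rgs18 and Rgs19 had 0. The 30-base windows with the most ATTTA in Rgs16 (chr1:153745317-153745346, + strand) and in Rgs3 (chr4:62702659-62702688, + strand, both GRCm38) are shown because they end in the same overlapping pair of ATTTA, in capitals.
Rgs16 3'UTR: gggactccccactgtgttaatATTTATTTA
Rgs3 3'UTR: gaccttgccccattgagttttATTTATTTA

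Of the 8 other genes, 5 passed the test for a response to IL-4 in WT (edgeR adjusted p under 0.05) and 3 did not. Across all genes tested, 50.0% were called in this comparison, so that this count was not far from the background. Of the 5, Rgs2, Rgs3, Rgs14 and Rgs19 fell, compared to 25.1% of all genes called lower, and Rgs10 rose, compared to 24.9% called higher. In KO macrophages, 5 of 8 were called as well, against 52.8% of all genes. Rgs2, Rgs3, Rgs14 and Rgs18 fell (26.0% of all genes were called lower) and Rgs10 rose (26.8% called higher). The median log2 fold change of the 8 genes was -0.17 in WT and -0.21 in KO, and over all genes it was -0.008 and 0.014. With the mouse as a replicate block, 6 of 8 were called in WT, against 54.6% of all genes, and 7 of 8 in KO, against 58.2%. The comparisons of IL-4 and of genotype share libraries, so they are not independent of each other.

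**Figure D2:**
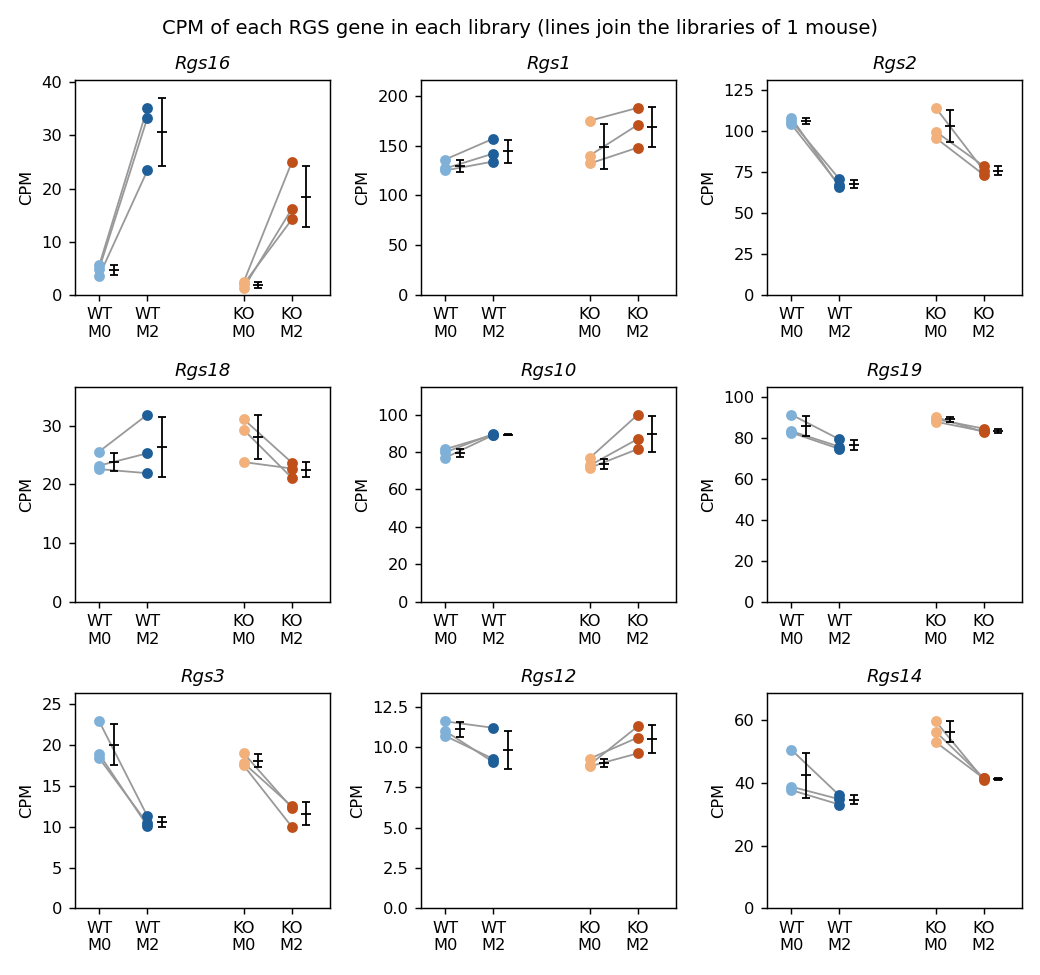
CPM of each RGS gene per library on linear axes that start at 0. Coloured points are the 3 libraries of a group, grey lines join the M0 and M2 libraries of 1 mouse, and black marks give the mean ± SD. All 6 lines fall for Rgs2, Rgs3 and Rgs14 and rise for Rgs16 and Rgs10, while the lines of Rgs12 fall in WT and rise in KO.

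Rgs2, which acts mainly on Gq alpha subunits, had the lowest adjusted p of the decreases in both genotypes. It was measured at 108, 104 and 106 CPM in WT M0 and at 65.9, 66.7 and 70.5 CPM in WT M2. In KO it had 95.6, 99.5 and 114 CPM in M0 and 73.1, 78.4 and 75.6 CPM in M2. No M2 library reached the lowest M0 library in either genotype. Rgs2 fell in both genotypes, with log2 changes of -0.64 in WT (SE 0.06, edgeR adjusted p = 2.96e-06) and -0.45 in KO (SE 0.06, edgeR adjusted p = 5.5e-05). The difference of these responses was 0.20 (SE 0.09) and did not pass (edgeR adjusted p = 0.27). Between genotypes, the M2 libraries of KO all lay above those of WT, with a log2 fold change of 0.16 (SE 0.06), but the edgeR adjusted p was 0.182. In M0 the genotypes differed by -0.04 on the log2 scale (SE 0.06, edgeR adjusted p = 0.769).

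The Rgs2 promoter is shown as the counterpart of Rgs16, from a gene with the opposite response (GRCm38.p6, chr1:144004150-144004399, - strand, 250 bases before the start site). Capitals mark 4 GC boxes, all in inverted orientation, 1 CCAAT box and 2 TGACG motifs. With 72.4% it has a higher GC content than the Rgs16 window (66.4%), and the median of all windows was 52.4%.
Rgs2 promoter: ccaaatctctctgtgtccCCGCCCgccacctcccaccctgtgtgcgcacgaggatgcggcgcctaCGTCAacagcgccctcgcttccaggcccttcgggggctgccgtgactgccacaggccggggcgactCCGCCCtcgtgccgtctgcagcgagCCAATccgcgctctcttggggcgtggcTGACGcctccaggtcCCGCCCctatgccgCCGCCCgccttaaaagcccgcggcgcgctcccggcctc

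Rgs3, which dampens both Gi and Gq signals and is made in several isoforms, had 18.4, 18.9 and 22.9 CPM in WT M0 and 10.4, 10.1 and 11.3 CPM in WT M2. KO libraries had 19.0, 17.8 and 17.5 CPM in M0 and 12.3, 12.5 and 9.99 CPM in M2. M0 and M2 were separated in both genotypes, whereas the genotypes overlapped in both states. The IL-4 response was -0.92 (SE 0.11, edgeR adjusted p = 1.25e-05) in WT and -0.64 (SE 0.10, edgeR adjusted p = 0.00015) in KO on the log2 scale, with a difference of 0.27 (SE 0.15, edgeR adjusted p = 0.354). KO and WT differed by -0.15 (SE 0.10, edgeR adjusted p = 0.379) in M0 and by 0.13 (SE 0.11, edgeR adjusted p = 0.549) in M2. The M0 value was -0.04 without WT M0 replicate 3. The M2 value was 0.06 without KO M2 replicate 2 and 0.22 without KO M2 replicate 3. The abundance-weighted transcript length of Rgs3 ranged from 2237 to 2420 nt in M0 and from 1635 to 2242 nt in M2. In TPM, which uses these lengths, the ratio of M2 to M0 within a KO mouse was 0.874, 0.816 and 0.590, and within a WT mouse 0.577, 0.502 and 0.567.

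Rgs1, known for restraining the chemokine response of lymphocytes, was at 136, 127 and 125 CPM in WT M0 and at 157, 142 and 134 CPM in WT M2. In KO it had 132, 140 and 175 CPM in M0 and 148, 171 and 188 CPM in M2. The level was higher with IL-4 in 6 of 6 mice, but the groups overlapped in all comparisons. Without the mouse in the model, IL-4 and M0 differed on the log2 scale by 0.16 (SE 0.11, edgeR adjusted p = 0.243) in WT and 0.18 (SE 0.11, edgeR adjusted p = 0.173) in KO. With the mouse as a block, both passed, with edgeR adjusted p = 0.0142 in WT and 0.00489 in KO. Without KO M0 replicate 3 (175 CPM), the response in KO passed as well, at 0.31 (edgeR adjusted p = 0.0201). It was 0.10 (edgeR adjusted p = 0.512) without KO M0 replicate 1 and likewise without KO M2 replicate 3. KO and WT differed by 0.21 (SE 0.11, edgeR adjusted p = 0.249) in M0, by 0.08 there without KO M0 replicate 3, and by 0.23 (SE 0.11, edgeR adjusted p = 0.253) in M2, by 0.15 there without KO M2 replicate 3.

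Rgs18, a Gi and Gq regulator best known from platelets and their precursors, had 22.6, 23.2 and 25.6 CPM in WT M0 and 21.9, 25.3 and 31.9 CPM in WT M2. KO libraries had 23.8, 29.3 and 31.1 CPM in M0 and 22.7, 21.1 and 23.7 CPM in M2. Rgs18 fell with IL-4 in KO by 0.32 on the log2 scale (SE 0.12, edgeR adjusted p = 0.0428), and in WT the log2 fold change was 0.14 (SE 0.13, edgeR adjusted p = 0.377). The call in KO was lost in 5 of the 6 fits without 1 library, with edgeR adjusted p up to 0.158 without KO M0 replicate 3, and it was kept only without KO M0 replicate 1. The difference between the responses was -0.47 (SE 0.18, edgeR adjusted p = 0.189, and 0.0573 with the mouse as a block), so that an opposite behaviour in the genotypes was not shown. The platelet glycoprotein transcripts Gp9 and Gp6 were at 0 in all 12 libraries and Gp1bb had at most 0.0657 CPM, and Itga2b was below 1 CPM in every library. The other 2 of the 6 platelet markers were expressed, with Pf4, which macrophages also express, at 318 to 483 CPM and Ppbp at 3.53 to 11.5 CPM. The summed list had 322 to 433 CPM in WT M0, 340 to 358 in WT M2, 407 to 428 in KO M0 and 431 to 494 in KO M2. Pf4 rose in KO M2 over WT M2 by 0.38 on the log2 scale (SE 0.09, edgeR adjusted p = 0.0414), and with IL-4 in KO, where Rgs18 fell, it differed by 0.11 (SE 0.09, edgeR adjusted p = 0.321). The part of such cells in the Rgs18 values was not tested.

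Rgs1, Rgs2 and Rgs18 are neighbours on chromosome 1 on the same (-) strand, with 238.1 kb between Rgs2 (143999338-144004161) and Rgs1 (144242296-144249242) and 503.4 kb between Rgs1 and Rgs18 (144752683-144775435). Rgs16 lies 8964.9 kb further along, on the + strand. With IL-4 in WT, these neighbours had log2 fold changes of -0.64 for Rgs2, 0.16 for Rgs1 and 0.14 for Rgs18.

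Rgs10, an abundant Gi regulator of myeloid cells and microglia, had 79.8, 76.9 and 81.5 CPM in WT M0 and 89.7, 89.1 and 89.2 CPM in WT M2. In KO it had 76.8, 71.5 and 72.8 CPM in M0 and 100, 81.6 and 87.0 CPM in M2. All M2 libraries lay above all M0 libraries of their genotype. Rgs10 rose by 0.17 (SE 0.07, edgeR adjusted p = 0.0475) in WT and by 0.28 (SE 0.07, edgeR adjusted p = 0.00286) in KO. The WT call was close to the threshold and was lost in all 6 fits without 1 library (edgeR adjusted p from 0.0541 to 0.133), on TPM and with no filter on low counts (edgeR adjusted p = 0.0787). It was kept with the mouse as a block (edgeR adjusted p = 0.0117), and the KO call was kept in all 6 fits without 1 library. KO and WT differed by -0.11 (SE 0.07, edgeR adjusted p = 0.336) in M0 and by 0.00 (SE 0.07, edgeR adjusted p = 0.989) in M2.

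Rgs12, a large multidomain regulator of Gi, had 10.7, 11.0 and 11.6 CPM in WT M0 and 9.27, 9.07 and 11.2 CPM in WT M2. In KO it had 9.29, 8.81 and 8.91 CPM in M0 and 10.6, 9.62 and 11.3 CPM in M2. Counts were lower with IL-4 in 3 of 3 WT mice and higher in 3 of 3 KO mice. The log2 fold changes were -0.17 (SE 0.09, edgeR adjusted p = 0.148) in WT and 0.22 (SE 0.09, edgeR adjusted p = 0.0528) in KO, the latter passing with the mouse as a block (edgeR adjusted p = 0.0298), on TPM (limma adjusted p = 0.0132 on log2(TPM + 1)) and without KO M2 replicate 2 (0.0288). In WT it passed without WT M2 replicate 3, at -0.27 (edgeR adjusted p = 0.0258). The difference between the responses was 0.40 (SE 0.13, edgeR adjusted p = 0.126) and passed only without WT M2 replicate 3, at 0.50 (edgeR adjusted p = 0.0477). In M0 all KO libraries were below all WT libraries, at a log2 difference of -0.30 (SE 0.09, edgeR adjusted p = 0.0552, and 0.0461 when only the 6 M0 libraries were fitted).

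The transcript length of Rgs12 varied most among the members, from 3484 to 4933 nt in M0 and from 2899 to 3969 nt in M2, and TPM did not follow the counts. Within a WT mouse the TPM ratio of M2 to M0 was 1.39, 0.837 and 0.927, and within a KO mouse 1.4, 1.58 and 1.51. The downstream of its RefSeq windows is shown, as it holds the only TTCNNNNGAA of the set (GRCm38.p6, chr5:34998828-34999077, + strand). It is in capitals together with TGACG, the GC box and an inverted match to TATAA at -229 to -225.
Rgs12 promoter: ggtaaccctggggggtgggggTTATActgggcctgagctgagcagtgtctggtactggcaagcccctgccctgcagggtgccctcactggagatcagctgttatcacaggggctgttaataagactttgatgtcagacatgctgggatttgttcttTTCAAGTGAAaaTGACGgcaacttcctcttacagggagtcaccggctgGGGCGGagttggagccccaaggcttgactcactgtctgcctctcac

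Rgs14, which combines RGS, Ras-binding and GoLoco domains, was the only one of the 8 genes called between genotypes. It had 37.7, 38.8 and 50.6 CPM in WT M0 and 56.3, 59.6 and 53.0 CPM in KO M0. After IL-4 the WT libraries had 33.1, 34.8 and 36.0 CPM and the KO libraries 41.5, 41.0 and 41.4 CPM. All KO libraries lay above all WT libraries in both states, with WT M0 replicate 3 close to the KO range. In M0 Rgs14 rose in KO by 0.41 on the log2 scale (SE 0.09, edgeR adjusted p = 0.0161). This call was lost without WT M0 replicate 2 (0.36, edgeR adjusted p = 0.0746), without KO M0 replicate 2 (0.37, edgeR adjusted p = 0.0654) and with only the 6 M0 libraries (edgeR adjusted p = 0.0612). In M2 the log2 fold change was 0.26 (SE 0.10) and did not pass (edgeR adjusted p = 0.161).

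Rgs14 was lower with IL-4 in both genotypes, with log2 changes of -0.29 in WT (SE 0.10, edgeR adjusted p = 0.0236) and -0.45 in KO (SE 0.09, edgeR adjusted p = 0.0012). The WT call rests in part on WT M0 replicate 3, without which the log2 fold change was -0.15 (edgeR adjusted p = 0.0647). It was also lost without WT M2 replicate 1 (edgeR adjusted p = 0.0802) and without WT M2 replicate 2 (edgeR adjusted p = 0.0561), and when only the 6 WT libraries were fitted (edgeR adjusted p = 0.072). The responses differed by -0.16 (SE 0.13, edgeR adjusted p = 0.582).

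Rgs19 had 82.7, 83.4 and 91.5 CPM in WT M0 and 74.7, 75.8 and 79.4 CPM in WT M2, and KO libraries had 89.3, 88.0 and 90.3 CPM in M0 and 84.6, 83.3 and 82.9 CPM in M2. M2 lay below M0 in 6 of 6 mice. The decrease passed in WT at -0.16 on the log2 scale (SE 0.05, edgeR adjusted p = 0.0122), but not when only the 6 WT libraries were fitted (edgeR adjusted p = 0.0529). The KO value was -0.09 (SE 0.05, edgeR adjusted p = 0.113), and it passed on TPM (limma adjusted p = 0.048 on log2(TPM + 1)). The difference of 0.07 (SE 0.07) did not pass (edgeR adjusted p = 0.633). In M2 all KO libraries lay above all WT libraries, at a log2 difference of 0.13 (SE 0.05, edgeR adjusted p = 0.167).

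**Figure D3:**
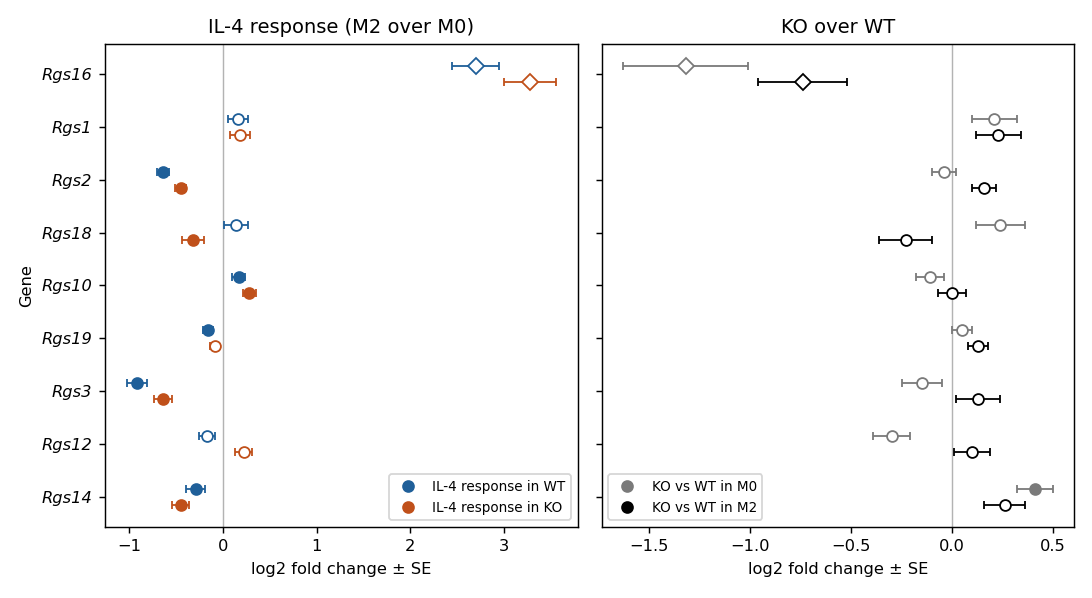
Log2 fold changes (± SE) of the 9 RGS genes with IL-4 (left) and between genotypes (right). Filled circles passed at an edgeR adjusted p under 0.05, open circles did not, and the open diamonds of Rgs16 were not tested. Only Rgs14 in M0 is filled on the right, at 0.41, while Rgs16 lies at -1.32 in M0 and -0.74 in M2.

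Between genotypes, in M0, 1 of the 8 tested genes was called, against 9.78% of all genes. In M2, 0 of 8 were called by edgeR, against 2.68% of all genes, and DESeq2 and limma also called 0. Here 3 of 8 (Rgs2, Rgs14 and Rgs19) had an unadjusted edgeR p under 0.05, as had 20.3% of all genes, and 4 of 8 had one by DESeq2. For the difference between the IL-4 responses, edgeR called 0 of 8, against 3.24% of all genes. For this difference 3 of 8 (Rgs2, Rgs12 and Rgs18) had an unadjusted edgeR p under 0.05, as had 17.8% of all genes, and DESeq2 and limma called 0. The median log2 fold change of the 8 genes was 0.01 in M0 and 0.13 in M2. CPM of the groups did not overlap for 3 of the 8 genes in M0 (Rgs10, Rgs12, Rgs14), against 31.1% of all genes, and for 3 in M2 (Rgs2, Rgs14, Rgs19), against 24.8%.

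Genes with a similar course were sought among 9746 genes that averaged 5 CPM or more, by the root mean square difference of the centred log2 CPM profiles over the 12 libraries. For Rgs16 these were Atp6v0d2, a subunit of the vacuolar proton pump (0.37), Gatm, an enzyme of creatine synthesis (0.43), and Cd83, an immunoglobulin-type surface protein (0.47). Atp6v0d2 went from 14.9 to 133 CPM with IL-4 in WT and from 11.5 to 94.4 CPM in KO (group means). Gatm went from 90.8 to 581 CPM in WT and from 72.2 to 502 CPM in KO. Cd83 went from 2.95 to 11.8 CPM in WT and from 1.41 to 13.1 CPM in KO, and its mean was thus not lower in KO M2, unlike that of Rgs16. For Rgs1 they were Rb1cc1 (0.10), Arhgef7 (0.11) and Usp54 (0.11), and for Rgs2 Cuedc1 (0.07), Ctps2 (0.07) and Tmem110 (0.08). The distances of Rgs16 were larger than those listed for Rgs1 and Rgs2. They are not scaled to the size of a gene's changes, so they do not compare likeness between these members.

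Among 18 other genes with an RGS domain, 7 passed the filter, namely Rgs9, Rgs11, Axin1, Grk2, Grk3, Grk5 and Grk6. IL-4 changed 5 of these 7 in WT (4 lower, 1 higher) and 5 of 7 in KO (4 lower, 1 higher). The counts of this and the following lists stand against 50.0% of all genes called in WT (24.9% higher, 25.1% lower) and 52.8% in KO (26.8% higher, 26.0% lower), and their counts between genotypes against 9.78% in M0 and 2.68% in M2. The receptor kinases Grk5, at -1.39 on the log2 scale (SE 0.09, edgeR adjusted p = 8.6e-08), and Grk3, at -1.03 (SE 0.11, edgeR adjusted p = 6.93e-06), fell in WT. Rgs9, of the subfamily that pairs with G-beta-5, fell by 1.99 on the log2 scale (SE 0.44, edgeR adjusted p = 0.00233) from a mean of 0.795 to 0.197 CPM. Its relative Rgs11 was the only one of the 7 called between genotypes, in M0, where WT libraries had 5.72, 4.67 and 4.91 CPM and KO libraries 7.97, 6.63 and 6.91 CPM. Its log2 fold change was 0.49 (SE 0.14, edgeR adjusted p = 0.0478), and the call was lost in 5 of 6 fits without 1 library, the exception being WT M0 replicate 1, and on TPM, with only the 6 M0 libraries and with the library number as a block (number block).

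The substrates of RGS proteins are the G-alpha subunits, of which 9 of 15 passed the filter. IL-4 changed 5 of these 9 in WT (4 higher, 1 lower) and 3 in KO (3 higher), against 50.0% and 52.8% of all genes. Gna15, a Gq-type subunit of haematopoietic cells, rose most in WT, by 1.59 on the log2 scale (SE 0.07, edgeR adjusted p = 2.2e-09) from a mean of 29.1 to 87.8 CPM. Gnaq rose by 0.48 (SE 0.06, edgeR adjusted p = 1.96e-05) and Gnai3 by 0.44 (SE 0.05, edgeR adjusted p = 1.48e-05). Of 12 fitted G-beta and G-gamma genes, 7 changed in WT (3 higher, 4 lower) and 5 in KO (3 higher, 2 lower). Gnb4 rose by 1.92 on the log2 scale (SE 0.09, edgeR adjusted p = 2.3e-09) and Gng2 fell by 0.72 (SE 0.06, edgeR adjusted p = 3.48e-07) in WT. Gng4, below 1 CPM on average in each group, fell with IL-4 in WT (log2 change -0.91, SE 0.34, edgeR adjusted p = 0.0396) and was lower in KO than in WT M0 (log2 change -1.11, SE 0.32, edgeR adjusted p = 0.0477). These calls were lost in 5 and 6 of the 6 fits without 1 library, respectively, and both with DESeq2, with no filter on low counts, with only the 6 libraries compared and with a replicate block.

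Proteins that bind or load free G-alpha, such as the GoLoco protein Gpsm2 and the exchange factor Ric8a, changed with IL-4 for 5 of 7 fitted genes in WT (2 higher, 3 lower) and 4 of 7 in KO (2 higher, 2 lower). In WT, Gpsm2 fell by 0.83 on the log2 scale (SE 0.19, edgeR adjusted p = 0.00257) and Ric8a rose by 0.36 (SE 0.06, edgeR adjusted p = 0.000241). Ccdc88a, which encodes the G-alpha-binding protein girdin, rose by 1.26 (SE 0.10, edgeR adjusted p = 4.55e-07) and was lower in KO than in WT M2, at -0.49 (SE 0.10, edgeR adjusted p = 0.0275). The genotype call was kept only without WT M2 replicate 3 among the 6 fits without 1 library, and it was lost on TPM and with the number block. Of 7 arrestins and receptor kinases, IL-4 changed 5 in WT (1 higher, 4 lower) and 6 in KO (1 higher, 5 lower), and Arrb2, a beta-arrestin, fell by 0.65 on the log2 scale (SE 0.07, edgeR adjusted p = 8.38e-06) in WT.

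Of 19 fitted effectors of cAMP and phospholipase C signalling, IL-4 changed 12 in WT (5 higher, 7 lower) and 12 in KO (5 higher, 7 lower), against 50.0% and 52.8% of all genes. In WT the phospholipase Plcb4 fell by 1.13 on the log2 scale (SE 0.16, edgeR adjusted p = 7.74e-05), Plcb1, below 1 CPM on average, rose by 1.09 (SE 0.39, edgeR adjusted p = 0.0335, lost in 4 of 6 fits without 1 library) and Rapgef3, a cAMP-activated exchange factor, fell by 1.03 (SE 0.16, edgeR adjusted p = 0.000179). Rapgef3 and Pde4a were called between genotypes in M0. In KO, Rapgef3 fell by 0.79 on the log2 scale (SE 0.15, edgeR adjusted p = 0.00794) and Pde4a, a cAMP phosphodiesterase, fell by 0.25 (SE 0.06, edgeR adjusted p = 0.0194). Pde4a lost its call without WT M0 replicate 2 and without each of the KO M0 libraries (edgeR adjusted p up to 0.0833 over all alternatives), and Rapgef3 kept its call in all 6 of these fits. Both lost it on TPM and with the number block, and Pde4a also with no filter on low counts.

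Of 22 fitted Gi-coupled receptors, IL-4 changed 17 in WT (7 higher, 10 lower) and 16 in KO (6 higher, 10 lower), where 50.0% and 52.8% of all genes were called. The fractalkine receptor Cx3cr1 fell in WT with a log2 change of -6.70 (SE 0.22, edgeR adjusted p = 1.3e-10), from a mean of 72.4 to 0.699 CPM, and the formyl peptide receptor Fpr1 fell by 4.55 (SE 0.41, edgeR adjusted p = 1.27e-06). The leukotriene receptor Ltb4r1 rose by 5.21 (SE 0.34, edgeR adjusted p = 5.64e-08) from a mean of 0.185 to 6.97 CPM. In M0, 4 of the 22 were called between genotypes, against 9.78% of all genes. The chemokine receptor Ccr1 rose in KO by 1.06 on the log2 scale (SE 0.12, edgeR adjusted p = 0.000402), from a mean of 35.9 ± 4.22 to 74.7 ± 3.52 CPM (SD, n = 3). P2ry14, a receptor for UDP-sugars, rose by 0.95 (SE 0.16, edgeR adjusted p = 0.0036), the sphingosine-1-phosphate receptor S1pr1 rose by 0.29 (SE 0.08, edgeR adjusted p = 0.0363), and the medium-chain fatty acid receptor Gpr84 fell by 0.54 (SE 0.12, edgeR adjusted p = 0.0137). Among the 6 fits without 1 library, S1pr1 kept its call only without WT M0 replicate 3 (it also lost it on TPM and with the number block), and Gpr84 lost it without WT M0 replicate 2, KO M0 replicate 1 or KO M0 replicate 3.

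**Figure D4:**
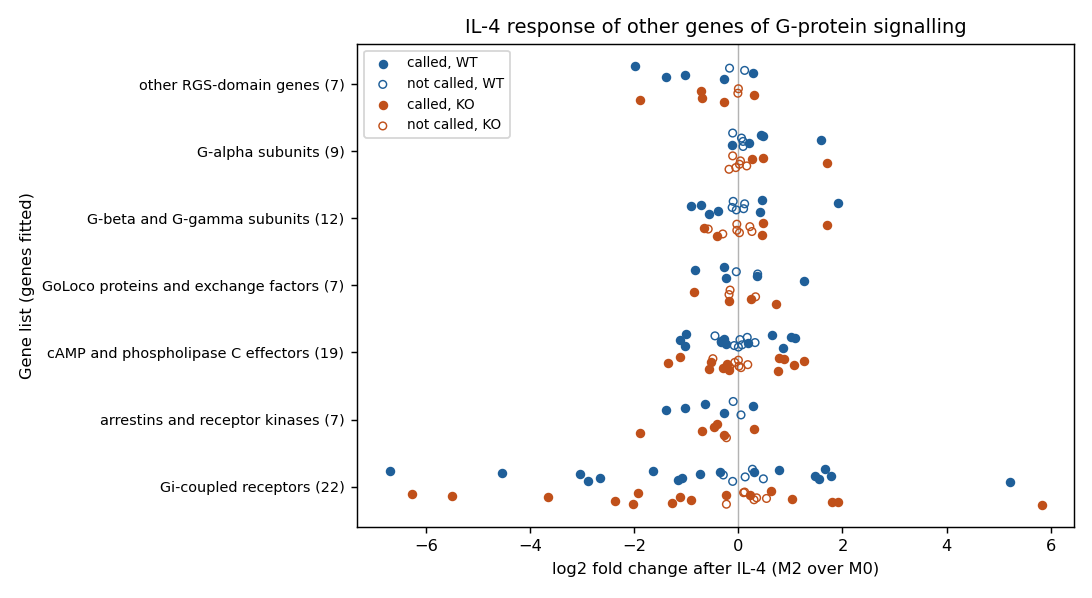
Log2 fold changes with IL-4 of the fitted genes of 7 lists of G-protein signalling, with 1 point per gene, WT in blue and KO in orange. Filled points passed at an edgeR adjusted p under 0.05. The Gi-coupled receptors span the widest range, from -6.70 (Cx3cr1) to 5.21 (Ltb4r1) in WT, and 4 receptor kinases appear in both the RGS-domain and the arrestin list.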

How the data were processed

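Poly(A) RNA of the 12 libraries was sequenced in single-end, strand-specific mode (1 × 75 nt). Per the study's methods and the submitters' processing notes, the authors checked reads with FastQC 0.11.2, processed them with the Grape-nf pipeline on GRCm38/mm10 and tested them with DESeq2 1.40.2. The gene annotation release behind the counts and the version of the counting program are not given in the sources used here, and the older GENCODE release that the study names for its own 3'UTR sequences was not used here. For each gene of each library the authors deposited an expected count, which is an estimated read number not corrected for depth, TPM and transcript lengths. The authors' tables of log2 fold changes and p-values hold their own comparisons, which were not used. Symbols and coordinates came from GENCODE M21 (GRCm38), which named 37570 of the 38887 IDs, and otherwise symbols from these tables. Protein sequences were not used here, and promoter windows (RefSeq, GRCm38.p6) were used for 6 of the 9 genes.

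Expected counts were rounded and fitted with edgeR 4.0.16 in R 4.3.3 (filterByExpr, TMM, quasi-likelihood test on the 12 libraries together, each group with its own coefficient). p-values were adjusted over all 12846 genes (Benjamini-Hochberg), and genes were called at an adjusted p under 0.05. The biological coefficient of variation was 8.08%. SE were derived from the F statistic. The 4 groups followed the labels. Libraries of the same number in M0 and M2 varied together around their group means (correlations of 0.103 to 0.364) and were taken as 1 mouse, whereas equal numbers in WT and KO did not (-0.068 to 0.04). For every member except Rgs3, the deposited posterior SD of the count was 0. Depth limits Rgs16 most, in KO M0.

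Alternatives were DESeq2 1.42.0, RLE size factors, no filter on low counts, limma 3.58.1 on log2(TPM + 1) and log2(TPM + 0.1), only the libraries compared, a replicate block and leaving out each library. The fit was tested on simulated data with changes larger than those of the tested RGS genes. It was not tested there on smaller changes. The 9 genes and all gene lists were chosen with earlier results of these data known. Named genes are all members, list genes called between genotypes or in the difference between the responses, the 3 largest called IL-4 responses in WT per list, and the 3 nearest profiles of Rgs16, Rgs1 and Rgs2. A called list gene is not reported here.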

Additional observations from a re-analysis of the deposited data

Results flagged for a closer look

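For Rgs12, the response to IL-4 had opposite signs in the genotypes, as CPM fell in each of the 3 WT mice (by 0.05 to 0.27 on the log2 scale) and rose in each of the 3 KO mice (by 0.13 to 0.34). The difference between the responses was 0.40 (SE 0.13) and did not pass over all genes (edgeR adjusted p = 0.126). On TPM, WT mouse 1 went the other way, with a ratio of M2 to M0 of 1.39.

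In the lists of G-protein signalling genes, the IL-4 responses of 3 of 22 fitted Gi-coupled receptors differed between genotypes by the test of the difference, against 3.24% of all genes. For Ccr1 the difference (KO minus WT) was -1.04 (SE 0.17, edgeR adjusted p = 0.00755), as the mean went from 35.9 to 113 CPM in WT and from 74.7 to 115 CPM in KO, and the call was kept in all 12 fits without 1 library. For Gpr84 it was 0.86 (SE 0.18, edgeR adjusted p = 0.023), with means going from 162 to 22.0 CPM in WT and from 111 to 27.3 CPM in KO, and it was lost in 5 of 12 fits without 1 library (edgeR adjusted p up to 0.0631) and on both TPM scales. For Hcar2, the niacin receptor, it was 1.44 (SE 0.35, edgeR adjusted p = 0.0434), with means going from 1.30 to 1.81 CPM in WT and from 0.844 to 3.19 CPM in KO, and it was lost in 10 of 12 such fits (edgeR adjusted p up to 0.114) and on both TPM scales.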

How the results depend on the processing

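Of 630 values of the 9 RGS genes under alternatives, 578 kept their direction and their side of the threshold (for Rgs16, moved by less than 1 SD between libraries), 23 lost the call, 12 gained it, 13 changed sign and 4, all of Rgs16 on log2(TPM + 1), moved by more than 1 SD. On that scale the log2 fold change of Rgs16 was -0.91 between genotypes in M0. Its IL-4 response there was 2.36 in WT and 2.54 in KO, a difference of 0.18. The sign changes were all of small values. Without 1 library, the Rgs1 difference between the responses ranged from -0.06 to 0.15 and was negative without WT M0 replicate 1 (-0.02), WT M2 replicate 3 (-0.03), KO M0 replicate 1 (-0.06), KO M0 replicate 2 (-0.03) or KO M2 replicate 3 (-0.06). Rgs2 in M0 ranged from -0.11 to 0.02, the latter without KO M0 replicate 1. Rgs10 in M2 was -0.03 on either TPM scale, 0.00 with the number block and -0.08 (without KO M2 replicate 1) to 0.07 without 1 library. The Rgs12 response in WT was 0.03 on either TPM scale, and that of Rgs18 in WT ranged from -0.02 (without WT M2 replicate 3) to 0.26.

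The number of the 8 genes called in M0 was 0 with the library number as a replicate block and 0 to 1 without 1 library. In M2 it was 0 throughout. For IL-4 in WT it was 3 with only the 6 libraries, 4 on either TPM scale or with no filter and 3 to 5 without 1 library, in KO 7 on either TPM scale and 4 to 5 without 1 library, and for the difference 0 to 1. The mouse as a block called Rgs1 in both genotypes and Rgs12 in KO and changed no other call of the 8 genes. The number does not pair the genotypes, and the cause of the lost calls was not tested.

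Over all genes, 1256 were called for KO vs WT in M0 against 752 and 700 on log2(TPM + 1) and log2(TPM + 0.1), 612 with the number block and 458 to 1458 without 1 library. For KO vs WT in M2, 344 were called against 717 with DESeq2, 70 and 57 on the TPM scales, 163 with only the 6 libraries, 57 with the number block and 27 to 302 without 1 library. For the difference between the IL-4 responses (KO minus WT), 416 were called against 825 with DESeq2, 113 on either TPM scale, 1003 with the mouse as a block and 183 to 654 without 1 library. Without 1 library, the IL-4 response in WT gave 5601 to 6170 genes and the IL-4 response in KO 6015 to 6374. Of 431 values of the other named genes under alternatives, 341 kept their call and 90 lost it. Fits without 1 library have fewer degrees of freedom.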
